A study of Mus musculus with 6 samples.

Results

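Notch signalling genes were followed in day 3 embryoid bodies with and without induced Lef1. The set holds 10 genes chosen by name: the 4 receptors Notch1 to Notch4, the ligands Dll1, Dll3 and Jag1, and the target genes Hes1, Hes5 and Nrarp. Each had a row of its own among the 36699 rows of the gene table, each was among the 18114 rows tested by the authors, and 0 of the 10 rows joined several genes. The cells were A2Lox.cre mouse embryonic stem cells, a line into which a doxycycline-inducible transgene can be placed, here one for Flag-tagged Lef1. All 6 libraries came from cells that had been stripped from their fibroblast feeder layer and left to aggregate in suspension, and all were harvested on day 3. In the minus_Dox group (3 libraries) no doxycycline was given. In the plus_Dox group (3 libraries) it was present for 24 h from day 2. The labels name no clone and no separate cultures, so the spread behind the test may be technical. Cells without the transgene were not analysed here, so effects of the drug and of Lef1 cannot be told apart. In bulk RNA, fewer cells of a type and less RNA per cell cannot be told apart either.

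Notch receptors are membrane proteins that a ligand on a neighbouring cell opens to cleavage, first by the protease Adam10 and then by the gamma-secretase complex. The freed intracellular part enters the nucleus and, with the DNA-binding protein Rbpj and a Mastermind coactivator, switches on genes such as Hes1, Hes5 and Nrarp. Hes proteins are repressors of the bHLH family that hold back differentiation genes, and Nrarp dampens the Notch signal while stabilising Lef1 protein. Dll1 and Dll3 act in the presomitic mesoderm, where Dll1 is a known target of Wnt signalling through Tcf/Lef factors.

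The table gives 1 FPKM value (fragments scaled to transcript length and to the number of mapped fragments) per gene and group and none for single libraries, so no library's own level can be shown. The q-values are those of the authors' test, adjusted over all tested rows, and a gene is called at a q under 0.05. The standard error (SE) of a log2 fold, and the 95% interval made from it, are implied by the authors' test statistic. Lef1 was at 7.56 FPKM in minus_Dox and 51.0 FPKM in plus_Dox in the authors' deposited table, 6.75-fold higher (95% interval 5.21 to 8.74, q listed as 0), and its row does not separate the transgene from the cell's own gene. As a check of the labelled cells, the pluripotency genes Pou5f1 (820.2 and 1510.2 FPKM), Nanog (28.6 and 109.7 FPKM), Sox2 (56.2 and 30.9 FPKM) and Zfp42 (7.69 and 9.0 FPKM) were present in both groups. The primitive streak genes T (0.381 and 4.76 FPKM) and Mixl1 (0.307 and 0.886 FPKM) stood lower than these genes in each group. By the authors' test T (log2 fold 3.64, q listed as 0), Mixl1 (1.53, q = 2.65e-05) and Nanog (1.94, q listed as 0) were called higher in plus_Dox. Sox2 was called lower (-0.86, q = 2.66e-05), and Pou5f1 (q = 0.055) and Zfp42 (q = 0.56) were not called. The groups thus differed in these marker genes, and the part of that difference in the Notch values was not tested. Of all tested rows 12.2% were called, 8.98% as higher and 3.22% as lower in plus_Dox. The median log2 fold over them was 0.20. As a median shift, that of the 12240 rows with a finite fold and at least 1 FPKM, also 0.20, was subtracted. The split of calls was 1626 higher and 584 lower among 18114 rows before this. It was 618 higher and 1087 lower among the 17830 rows with a finite fold after it. Fold changes also followed transcript composition: across 11607 rows with at least 1 FPKM, Spearman's coefficient with GC content was 0.65 and with length -0.47, where rows are not independent. Values after removal of a smooth trend on both properties are therefore set beside the deposited ones; 2.18% of rows passed there.

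Of the 10 genes, 3 rose and none fell. Hes1, Nrarp and Notch3 passed, against 8.98% of all tested rows that were called higher. Before adjustment the same count, 3, had a p under 0.05 in the authors' test. The share of all tested rows at that cut was not computed, so this count has no background beside it. Both ligands of the Delta family, Jag1, Hes5 and the other 3 receptors did not pass. The median log2 fold of the 10 was 0.34 beside 0.20 for all tested rows, and 5 of them lay above the latter. After trend removal the median was 0.07, and 5 genes lay above 0 and 5 below. Hes1 was then the 1 member that passed, beside 2.18% of all rows.

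**Figure D1:**
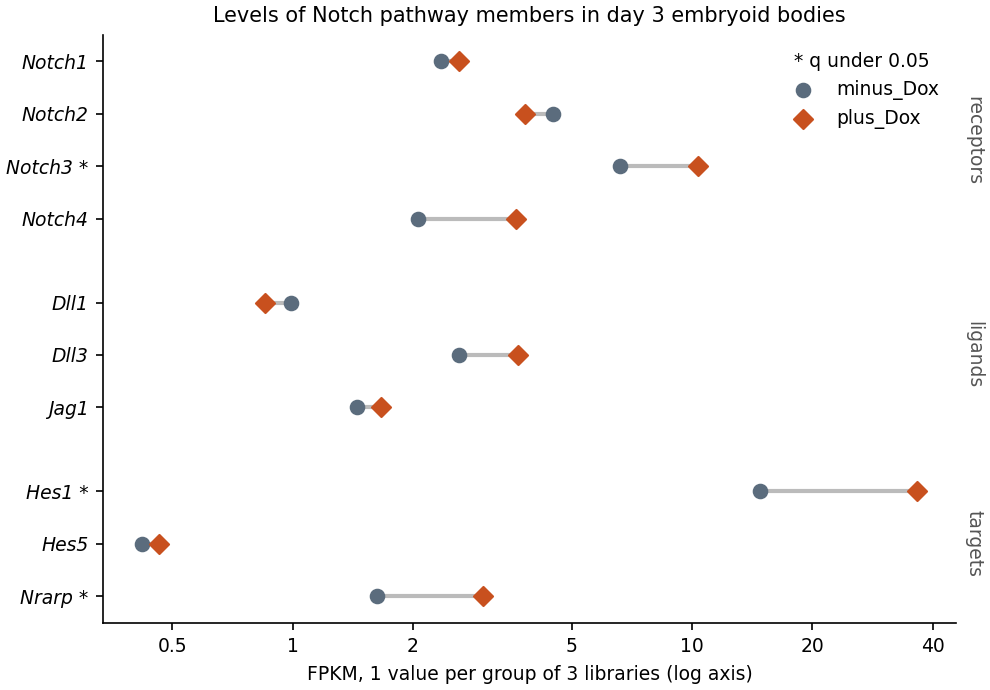
FPKM (log axis) of the 10 genes in minus_Dox (circles) and plus_Dox (diamonds), 1 value for each group of 3 libraries, with no error bar because single libraries are not given; asterisks mark a q under 0.05. Hes1 is the highest of the 10 in both groups, at 14.8 and 36.7 FPKM, and Hes5 the lowest, at 0.419 and 0.462 FPKM.

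The promoters of the members that moved were set beside that of Hes5, which did not pass, to show which binding motifs lie directly before the gene start. RefSeq windows on GRCm38.p6 were matched by symbol for 9 members (10 windows, Dll1 having 2). Hes1 was not matched. Each printed run is the 250 bases before the start, 5′ to 3′ on the gene's strand. The windows are chr2:25180508-25180757 (plus strand) for Nrarp, chr17:32166891-32167140 (minus strand) for Notch3 and chr4:154960673-154960922 (plus strand) for Hes5. Capitals mark the Rbpj core TGGGAA and the N-box CACNAG, a motif that Hes repressors can bind, on either strand.
Nrarp: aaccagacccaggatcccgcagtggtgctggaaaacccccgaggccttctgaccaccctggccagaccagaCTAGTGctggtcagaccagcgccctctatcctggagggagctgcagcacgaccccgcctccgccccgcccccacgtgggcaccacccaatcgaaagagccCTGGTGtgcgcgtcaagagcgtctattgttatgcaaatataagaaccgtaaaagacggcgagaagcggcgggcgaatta
Notch3: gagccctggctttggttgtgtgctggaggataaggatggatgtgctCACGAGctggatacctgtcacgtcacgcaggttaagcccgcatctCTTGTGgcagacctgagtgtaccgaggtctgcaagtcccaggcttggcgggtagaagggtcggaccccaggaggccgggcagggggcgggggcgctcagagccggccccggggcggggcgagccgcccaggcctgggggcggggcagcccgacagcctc
Hes5: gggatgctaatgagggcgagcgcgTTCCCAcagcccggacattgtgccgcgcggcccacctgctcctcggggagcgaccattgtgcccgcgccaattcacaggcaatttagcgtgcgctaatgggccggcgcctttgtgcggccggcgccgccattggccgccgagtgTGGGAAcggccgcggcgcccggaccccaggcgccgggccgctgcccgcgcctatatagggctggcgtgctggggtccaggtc

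The Rbpj core stood in 1 of the 10 windows, that of Hes5, where it occurred on both strands (bases 226 to 221 and 82 to 77 before the start). It occurs in 21.6% of all 32851 windows of this length. The N-box was found in 4 windows, those of Notch1, Notch2, Notch3 and Nrarp, and occurs in 36.7% of all. None of the 10 held a Tcf/Lef core (CTTTGAA or CTTTGAT, or the forms ending in TA and TT after the same CTTTG), which occurs in 14.8% of all windows. These are matches of letters within 250 bases only, and counts over 10 windows cannot show a difference from the shares of all windows. The member windows had 52% to 72% GC, and those shares were not matched for GC content.

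Among the target genes, Hes1 had the largest change of the 10. Hes1 encodes a repressor that is switched on by Notch in many embryonic tissues and by other signals in some. In the authors' deposited table it stood at 14.8 FPKM in minus_Dox and 36.7 FPKM in plus_Dox, with a log2 fold of 1.31 (SE 0.24, q = 4.93e-06). Hes1 thus rose 2.47-fold (95% interval 1.79 to 3.42). Its level was above that of 74.2% of tested rows without doxycycline and above that of 85.6% with it. The transcript has 50.7% GC and 1468 nt. With the trend taken out Hes1 stood at 0.93 on the log2 scale and passed (q = 0.0075).

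Nrarp, whose protein binds the Notch intracellular domain and limits its action, rose from a lower level. In the authors' deposited table it went from 1.62 to 3.00 FPKM, a log2 fold of 0.88 (SE 0.22, q = 0.0016). Nrarp thus rose 1.85-fold (95% interval 1.37 to 2.49). After subtraction of the median shift it passed (q = 0.025), and after trend removal it did not (log2 fold 0.49, q = 0.39). With 1 FPKM added to both groups its log2 fold was 0.61.

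Hes5, the Hes gene most tied to Notch activity in neural progenitors, was the lowest of the set. It was at 0.419 FPKM in minus_Dox and 0.462 FPKM in plus_Dox by the authors' deposited table (log2 difference 0.14, SE 0.47, q = 0.96). Its 95% interval, from 0.58-fold to 2.10-fold, includes the 1.85-fold change of Nrarp as well as a fall. The intervals of Hes1 and Hes5 overlap, and a difference between their changes was not tested. At 62.1% Hes5 has the highest GC content of the 10 transcripts, and with the trend taken out it stood at -0.59 (q = 0.99).

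**Figure D2:**
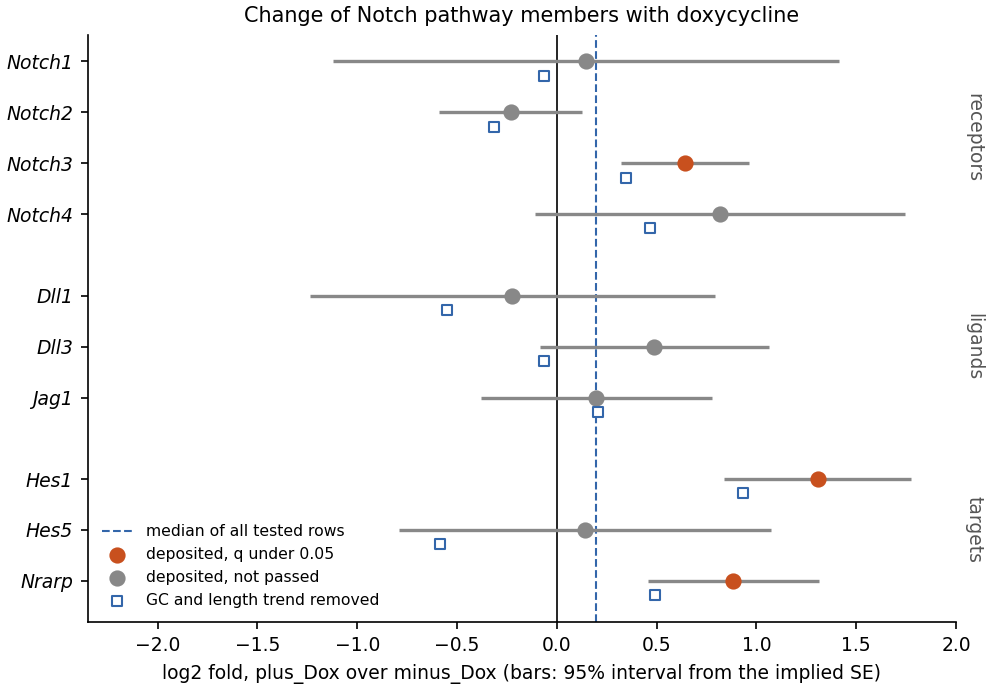
Log2 fold of plus_Dox over minus_Dox for each member: circles are the deposited values with 95% intervals from the implied SE, squares the values after removal of the GC and length trend, and the dashed line the median of all tested rows (0.20). The intervals of Hes1, Nrarp and Notch3 lie above 0, and the square of Hes1, at 0.93, is the highest of the 10.

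Among the receptors Notch3 was the most abundant, and it was the 1 that passed. Notch3 is best known from vascular smooth muscle and is also expressed in the early embryo. By the authors' deposited table the level went from 6.62 to 10.3 FPKM, a log2 difference of 0.64 (SE 0.16, q = 0.0023). Notch3 thus rose 1.56-fold (95% interval 1.25 to 1.95). It missed the threshold after subtraction of the median shift (log2 fold 0.44, q = 0.066) and after trend removal (log2 fold 0.35, q = 0.46). Its transcript has 59.6% GC.

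Notch2, the next receptor by level in both groups, did not pass. It was at 4.48 FPKM in minus_Dox and 3.81 FPKM in plus_Dox by the authors' deposited table (log2 difference -0.23, SE 0.18, q = 0.51). Its 95% interval ran from 0.66-fold to 1.09-fold. Notch1, the receptor most studied in mesoderm and blood formation, was at 2.35 and 2.60 FPKM by the authors' deposited table (log2 difference 0.15, SE 0.65, q = 0.98). Its 95% interval, from 0.46-fold to 2.66-fold, includes the 2.47-fold change of Hes1.

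Notch4, a receptor known chiefly from endothelium, had the largest point estimate of the 4 receptors without passing. It was at 2.06 and 3.63 FPKM by the authors' deposited table (log2 difference 0.82, SE 0.47, q = 0.30), with a 95% interval of 0.93-fold to 3.35-fold. Its transcript has 61.2% GC, and with the trend taken out it stood at 0.46. Of 10 endothelial genes 7 were tested and 0 passed, beside 12.2% of all tested rows. A list this short cannot show a difference from that share. The endothelial cadherin gene Cdh5 (0.0511 and 0.0516 FPKM) and the receptor genes Tie1 (0.0262 and 0.0244 FPKM) and Kdr (0.0992 and 0.0751 FPKM) were near 0 in both groups; Cdh5 and Tie1 were not tested by the authors. Pecam1 (0.552 and 0.677 FPKM, q = 0.72 in the authors' deposited table), Tek (0.504 and 0.364 FPKM, q = 0.42) and Cldn5 (0.393 and 0.595 FPKM, q = 0.32) stood higher than these in both groups. The summed FPKM of the tested rows was 42.8 and 67.6, nearly all of it from a row in the authors' deposited table that joins Egfl7 with Fam69b and Gm20532 (40.8 and 65.5 FPKM, q = 0.16). The part of these genes in the Notch4 value was not tested.

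FPKM is relative to transcript length, so levels were set against each other. Fold changes still followed GC content and length. After trend removal 0 of the 4 receptors passed, beside 2.18% of all rows, and 4 genes cannot show a difference from that percentage. The part of that trend in the shares below was not tested. Notch3 made up 42.7% of the summed FPKM of the 4 receptors in minus_Dox and 50.7% in plus_Dox. Notch2 made up 28.9% and 18.7%, Notch1 15.2% and 12.8%, and Notch4 13.3% and 17.8%. The order was Notch3, Notch2, Notch1, Notch4 without doxycycline, and Notch4 stood ahead of Notch1 with it. Without values of single libraries, whether neighbours in this order differ beyond their spread cannot be said.

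None of the 3 ligand genes passed, beside 12.2% of all tested rows, and so few genes cannot show a difference from that share. Dll1 was at 0.992 FPKM in minus_Dox and 0.850 FPKM in plus_Dox by the authors' deposited table (log2 difference -0.22, SE 0.52, q = 0.92). Its 95% interval ran from 0.42-fold to 1.73-fold. Dll3, a Delta-like protein that stays inside the cell and does not activate receptors on neighbours, was at 2.61 and 3.66 FPKM by the authors' deposited table (log2 difference 0.49, SE 0.29, q = 0.33). After trend removal Dll3 stood at -0.06. Jag1, the Serrate-type ligand, was at 1.45 and 1.66 FPKM by the authors' deposited table (log2 difference 0.20, SE 0.30, q = 0.81), which is the median of all tested rows.

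Markers of the presomitic mesoderm, where Dll1 acts, were read beside the ligands, with 8.98% of all tested rows called higher and 3.22% lower as background. Of 9 such genes 7 were tested and 2 rose, both of them Wnt feedback genes: Axin2 (1.11 to 5.32 FPKM by the authors' deposited table, log2 difference 2.26, SE 0.32, q = 4.11e-10) and Dkk1 (1.32 to 3.05 FPKM by the authors' deposited table, log2 difference 1.21, SE 0.22, q = 7.09e-06). Both passed after trend removal, at 1.98 and 1.16. The summed FPKM of the tested rows was 5.91 and 12.3, and most of that difference came from Axin2 and Dkk1. The presomitic regulator genes Tbx6 (0.316 and 0.564 FPKM, q = 0.16 in the authors' deposited table) and Mesp2 (0.108 and 0.152 FPKM, q = 0.65) did not pass. Ripply2, the 1 tested gene of the list with a log2 fold below 0, did not pass either (0.160 and 0.0872 FPKM by the authors' deposited table, q = 0.72). Msgn1 and Mesp1 were listed at under 0.05 FPKM and not tested. Lfng, the glycosyltransferase gene of the segmentation clock, was at 2.70 and 2.83 FPKM by the authors' deposited table (q = 0.96), and the clock repressor gene Hes7 at 0.201 and 0.279 FPKM (q = 0.58).

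Among 12 neural progenitor genes 7 were tested and 1 was called, the proneural gene Neurog1, at 0.00788 and 0.104 FPKM by the authors' deposited table (log2 difference 3.72, SE 1.22, q = 0.024). It did not pass after trend removal (q = 0.23). Over all tested rows 12.2% were called, and 1 call among the 7 tested of the list is near that share. The most abundant of the list was Nes, an intermediate filament gene, at 22.5 and 31.0 FPKM by the authors' deposited table (q = 0.085), and the summed FPKM of the tested rows, most of it from Nes, was 28.4 and 35.3. Of the 7 tested rows 3 had a log2 fold below 0 without passing, namely Pax6 (1.31 and 0.604 FPKM, q = 0.89 in the authors' deposited table), the row that joins Neurod1 with Cerkl (1.19 and 0.582 FPKM, q = 0.18) and Fabp7 (2.88 and 2.16 FPKM, q = 0.54). The proneural gene Neurog2 was under 0.05 FPKM in both groups and was not tested, and Sox1 had no row in the table used here. Feeder fibroblasts were checked with 10 genes, of which 8 were tested and 0 passed at a q under 0.05 in the authors' deposited table. Of all tested rows 12.2% passed, and a list this short cannot show a difference from that share. The highest was Thy1 (11.9 and 16.6 FPKM, q = 0.055). The summed FPKM of the tested rows, most of it from Thy1, was 17.3 and 23.3. The other tested genes stood lower than Thy1 in both groups, among them Col1a1 (0.888 and 1.32 FPKM) and Pdgfrb (0.793 and 0.678 FPKM). Of the 8 tested genes 7 had a log2 fold above 0, and Pdgfrb was the 1 below it. The median log2 fold of this list was 0.42, beside 0.20 for all tested rows. Lum and Fap were not tested. The part of neural or feeder cells in the values of Hes1, Nrarp and Notch3 was not tested.

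The rest of the pathway was read from 60 further genes listed by role, 56 of them tested. Of these 2 were called higher and 3 lower, against 8.98% and 3.22% of all tested rows, and 51 did not pass. Each single role list is too short to show a difference from those shares. Their median log2 fold was 0.17 beside 0.20. After subtraction of the median shift the split was 1 higher and 6 lower, and after trend removal 1 of 55 passed beside 2.18% of all rows.

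**Figure D3:**
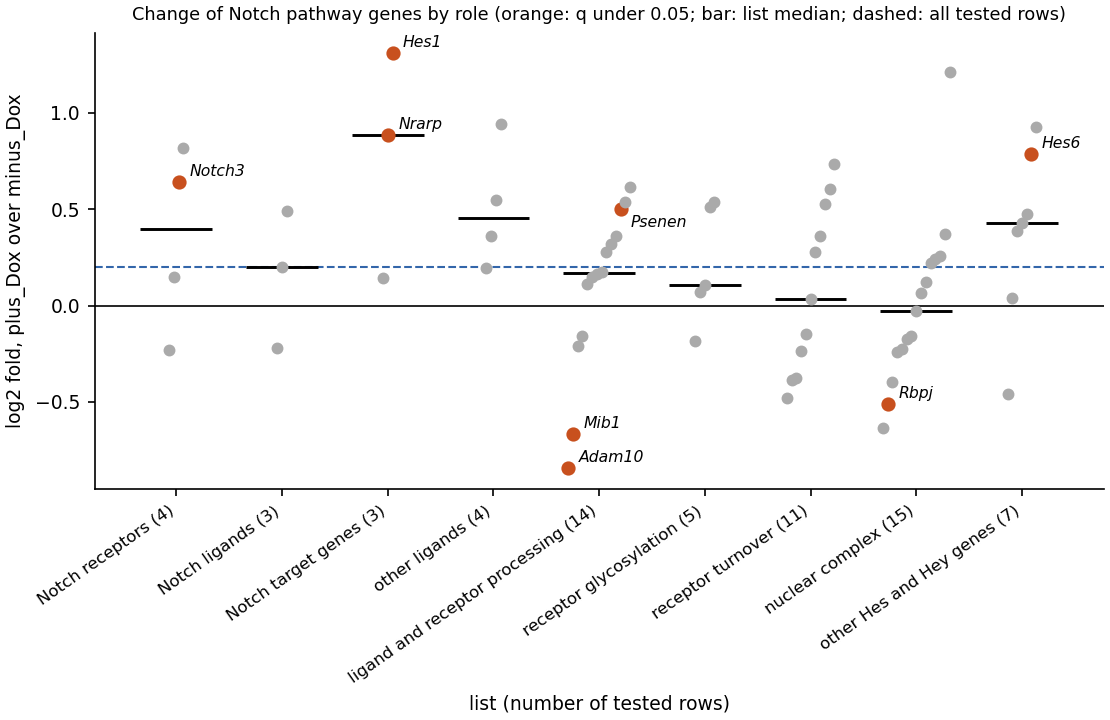
Log2 fold of plus_Dox over minus_Dox for every tested gene of the 9 role lists, with list medians as bars and the median of all tested rows (0.20) dashed; orange points have a q under 0.05. Calls above the dashed line are Notch3, Hes1, Nrarp, Psenen and Hes6, and those below 0 are Mib1, Adam10 and Rbpj.

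Of the 14 genes that process ligands and receptors, 1 rose and 2 fell, beside 8.98% of all tested rows called higher and 3.22% lower. Adam10, the protease of the first receptor cut, fell from 7.29 to 4.07 FPKM by the authors' deposited table (log2 difference -0.84, SE 0.19, q = 0.00046). Mib1, the ubiquitin ligase that readies ligands for signalling, fell from 18.3 to 11.5 FPKM by the authors' deposited table (log2 difference -0.67, SE 0.23, q = 0.035). Psenen, a small subunit of gamma-secretase, rose from 71.8 to 102 FPKM by the authors' deposited table (log2 difference 0.50, SE 0.17, q = 0.026). None of the 3 passed after trend removal, where Adam10 stood at -0.55 (q = 0.12), Mib1 at -0.31 (q = 0.94) and Psenen at -0.15 (q = 1.00). After subtraction of the median shift Adam10 (log2 fold -1.04, q = 5.7e-06) and Mib1 (-0.87, q = 0.0040) passed and Psenen did not (0.30, q = 0.30). The falling genes have AT-rich transcripts (42.1% GC for Adam10 and 43.4% for Mib1), and Psenen has one of 708 nt.

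Of the 15 genes of the nuclear complex, Rbpj fell and the others did not pass, beside 3.22% of all tested rows called lower. Rbpj, the factor through which all 4 receptors act on DNA, went from 13.3 to 9.33 FPKM by the authors' deposited table (log2 difference -0.51, SE 0.17, q = 0.025). After trend removal it stood at -0.28 (q = 0.77), with a transcript of 43.7% GC, and after subtraction of the median shift it passed at -0.71 (q = 0.00079). The coactivator genes Maml1 (5.14 and 5.04 FPKM by the authors' deposited table, q = 0.999) and Maml3 (1.59 and 1.73 FPKM, q = 0.89) were among those without a call and were picked once their values were known.

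Of 7 tested Hes and Hey genes outside the set, Hes6 rose, beside 8.98% of all tested rows called higher. Hes6, which lacks the Notch dependence of its relatives and counteracts Hes1, was the most abundant gene of the family in both groups. It went from 29.3 to 50.4 FPKM by the authors' deposited table (log2 difference 0.78, SE 0.18, q = 0.00036) and so rose 1.72-fold (95% interval 1.36 to 2.19). Hes1 and Hes6 thus had the highest levels of the family and both rose. With 60.3% GC and 1335 nt, Hes6 stood at 0.09 once the trend was taken out (q = 1.00). Hey1, a further Notch target named after its value was seen, was at 3.04 and 3.12 FPKM by the authors' deposited table (q = 0.99).

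No other ligand, glycosylation or turnover gene passed, beside 12.2% of all tested rows. The most abundant of the 4 tested further ligands were Jag2 (3.72 and 4.77 FPKM by the authors' deposited table, q = 0.23) and Dlk1 (1.56 and 1.79 FPKM, q = 0.92). Of 5 glycosylation genes the highest were Poglut1, which adds glucose to the receptors (23.4 and 20.6 FPKM by the authors' deposited table, q = 0.68), and Rfng (5.68 and 8.09 FPKM, q = 0.080). Of 11 turnover genes the highest were the ubiquitin ligase genes Nedd4 (197 and 167 FPKM by the authors' deposited table, q = 0.50) and Dtx3 (54.0 and 89.8 FPKM, q = 0.054). Dtx4, another Deltex gene and named after its value was seen, was at 4.96 and 3.55 FPKM by the authors' deposited table (log2 difference -0.48, q = 0.060), and passed after trend removal at -0.62 (q = 0.033).

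**Figure D4:**
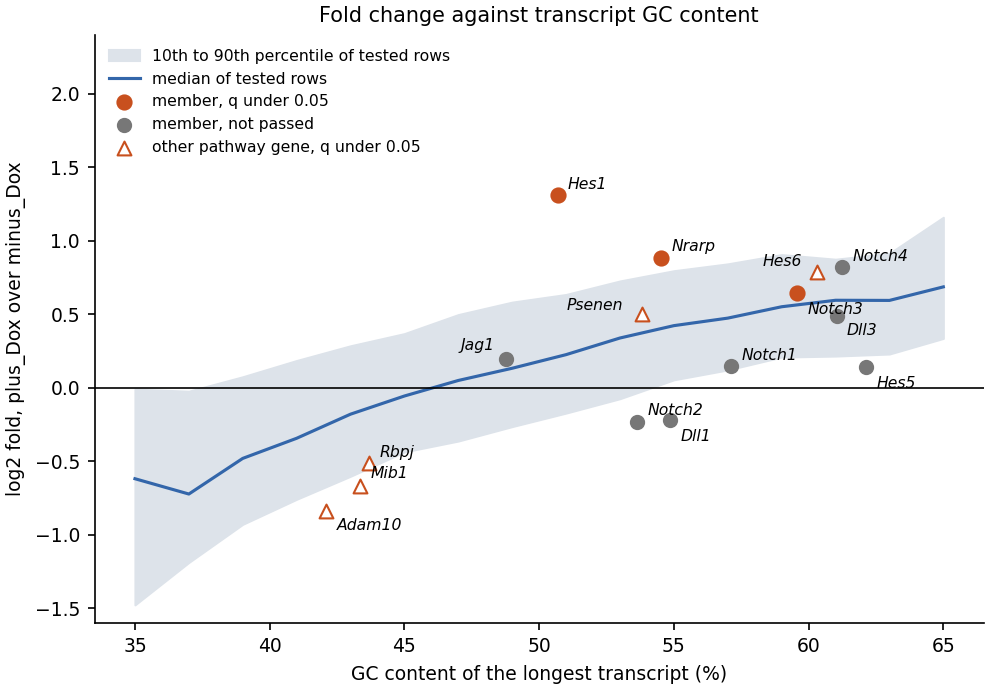
Log2 fold against GC content of the longest transcript: the line is the median and the band the 10th to 90th percentile of tested rows with at least 1 FPKM in bins of GC content, circles are the 10 members and triangles the other called pathway genes. Hes1, at 50.7% GC and a log2 fold of 1.31, and Nrarp, at 54.5% and 0.88, lie above the band, Notch2, Dll1, Hes5, Adam10 and Mib1 lie below it, and the other labelled genes lie inside it. These are positions of point estimates, drawn without their intervals. Dll1 and Hes5 were under 1 FPKM in both groups and so are not among the rows of the band.

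GC content was high in most of the set: 9 of the 10 members had more GC than the median tested row (50.3%), Jag1 with 48.8% being the exception. The removed trend, which is the log2 fold that rows of like GC content and length had, was 0.37 for Hes1, 0.39 for Nrarp, 0.29 for Notch3 and 0.73 for Hes5.

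Rows of the table are located in mm9. The Hes1 row covers chromosome 16 from 30064469 to 30067882, the Nrarp row chromosome 2 from 25036277 to 25038850, and the Notch3 row chromosome 17 from 32250373 to 32303825. Compared by length alone with the GENCODE vM21 gene, the Hes1, Nrarp, Notch2, Notch4 and Jag1 rows were about as long as the gene. Those of Notch1 (1.21 times), Notch3 (1.16 times), Dll1 (1.27 times), Dll3 (1.22 times) and Hes5 (1.11 times) were longer. Coordinates were not compared, so what the extra length covers is not known. Exons of 5 members, Notch1, Notch3, Dll1, Hes5 and Nrarp, overlap a gene on the opposite strand in that annotation. The counting is not stated to use strand, so reads of those partners cannot be told apart from the members'. Exons of Notch2 overlap Gm42820 on the same strand, which counting by strand would not separate. Of these partners A930024N18Rik, opposite Dll1, was at 0.0726 and 0.0304 FPKM by the authors' deposited table, and Gm20421, opposite Hes5, at 0.0648 and 0.112 FPKM. Gm17276, opposite Notch3, was listed there at 0.0284 and 0.0464 FPKM and not tested. The partners of Notch1 (0610009E02Rik and Gm13568), Nrarp (Gm38287) and Notch2 (Gm42820) had no row of their own under these names. Their levels are therefore not known.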

How the data were processed

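RNA from 6 libraries (3 minus_Dox, 3 plus_Dox, grouped by sample title) was captured on oligo-dT beads and randomly primed, per the labels' protocols. Among tools, the submitters' processing notes list Cuffdiff, Cufflinks (2.0.2), Picard, Bowtie and TopHat2 (2.0.8), with mm9 as the build. Which gene annotation was used is not stated in any source at hand. Per the file headers, the deposited values are FPKM for each group, a log2 fold, a test statistic (an unbounded score), and, from the authors' test, a p-value and a q-value. The log2 fold column was handled as a score because rows at 0 FPKM in 1 group hold a placeholder there. With 0 columns for single libraries, the authors' test was used, no other model was fitted, and depth is unknown. Each deposited q-value was checked to be a Benjamini-Hochberg value over all tested rows.

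The SE was computed as the size of the log2 fold over that of the statistic. The trend (scikit-learn 1.9.0, cubic splines with 6 knots in GC content and log2 length of the longest GENCODE vM21 basic transcript) was fitted on 11607 rows that reached 1 FPKM in either group. It was removed from 16673 rows (93.5% of those with a finite fold), and q-values were recomputed with the same SE. The step was tested on simulated folds drawn around this same trend with the implied SE. Such data cannot show what the trend in the real rows comes from. The members, lists and alternatives were chosen with earlier results of these data known. Named genes are the members, Lef1, all called genes of the pathway and marker lists, the 2 highest of each pathway list without a call and the highest of each marker list; the other marker genes, the genes that check the labelled cells and those marked so in the text were named after their values were seen. Alternatives were other q-value thresholds, a minimum fold, FPKM minima, a median shift, the trend removal and pseudocounts.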

Additional observations from a re-analysis of the deposited data

How the results depend on the processing

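Hes1 passed under each of the 7 alternatives (q-value thresholds of 0.01 and 0.1, at least 2-fold, at least 1 or 5 FPKM, median-ratio scaling, trend removal). Given its deposited q-value and fold, the thresholds and the minimum fold could not change its call, and at its level the FPKM minima hardly could. Only the scaling and the trend removal changed its fold. The count of 3 members called was 1 with at least 2-fold and 1 after trend removal, Hes1 in both; Nrarp does not reach the 5 FPKM minimum. The count of 5 other pathway genes was 2 at a threshold of 0.01, 8 at 0.1, 0 with at least 2-fold and 1 after trend removal. Over all rows 2210 calls became 1208 at 0.01, 491 with at least 2-fold and 364 after trend removal. Among the members and the called pathway and marker genes, signs changed for Notch1 (-0.053 after scaling, -0.064 after trend removal) and Hes5 (-0.059 and -0.59). They also changed for Jag1 (-0.0022 after scaling), Dll3 (-0.064 after trend removal) and Psenen (-0.15 after trend removal). Of these, Psenen alone had passed. Pathway genes without a call changed sign too, such as Jag2 (0.36 to -0.05) and Rfng (0.51 to -0.08) with trend removal. The cause of these shifts was not tested. No paired analysis was possible because the table holds no columns of single libraries, and for the same reason no library was left out in turn. Depth is unknown, and the wide intervals of Notch1, Dll1 and Hes5 limit what can be said of them.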

Other observations

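The 4 further genes of the pathway lists that were listed but not tested by the authors were all at under 0.1 FPKM in both groups. They were the endothelial ligand gene Dll4 (0.0570 FPKM in minus_Dox and 0.0481 FPKM in plus_Dox in the authors' deposited table) and the bHLH genes Hes2 (0.0551 and 0.0578 FPKM), Heyl (0.0170 and 0.0236 FPKM) and Helt (0.0180 and 0.0267 FPKM). Numbl, a relative of the Notch inhibitor Numb, shares its row with Adck4 (13.8 and 21.0 FPKM by the authors' deposited table, q = 0.37), so its own level is not known. Numb itself was at 8.54 and 8.75 FPKM by the authors' deposited table (q = 0.998). Maml2, the third Mastermind coactivator gene, was at 0.247 and 0.571 FPKM by the authors' deposited table, with an implied SE of 27.8 on the log2 scale, the widest error among these genes' values given here.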
